A study of Homo sapiens with 4 samples.

Results

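Transcripts of the TRAPP complex, a vesicle tether of the secretory pathway, were examined in BLaER1 cells after knockdown of the long non-coding RNA HAL7. The 10 subunit genes described were chosen by their symbols from a table of 43450 genes, and they are TRAPPC9 and TRAPPC10 (TRAPP II), TRAPPC8, TRAPPC11, TRAPPC12 and TRAPPC13 (TRAPP III), and TRAPPC1, TRAPPC3, TRAPPC4 and TRAPPC5 (core). TRAPPC9 is the reason the complex was selected. It was 1 of the 4 genes past the test over all genes, so the knockdown and control values of the 10 members are a description and carry no test. The knockdown group comprised 2 polyadenylated RNA libraries from BLaER1 cells exposed to GapmeRs against HAL7, and the control group comprised 2 libraries labelled only as control. GapmeRs are antisense oligonucleotides that direct RNase H to a bound RNA. Per the labels' protocols, 3 of them were put into the medium without transfection. The records of the control libraries carry the same protocol text, and what the control cells received is not given in the sources used here. BLaER1 is a line derived from a human B cell leukaemia, with a C/EBPα transgene that can be induced. Whether the libraries came from separate cultures is not stated, so the spread between them may be technical.

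TRAPP complexes are multi-subunit guanine nucleotide exchange factors, which load GTP onto Rab GTPases and so mark membranes for vesicle tethering. A shared core of small subunits, with longin folds in TRAPPC1 and TRAPPC4 and Bet3 folds in TRAPPC3 and TRAPPC5, forms the catalytic site. TRAPP II adds TRAPPC9 and TRAPPC10 and acts in Golgi and recycling traffic. TRAPP III adds TRAPPC8, TRAPPC11, TRAPPC12 and TRAPPC13 and acts between the endoplasmic reticulum and the Golgi and in autophagy.

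FPKM, the unit assumed here, is by definition fragments scaled to transcript length and to the mapped fragments of the library. How these libraries were scaled is not stated. HAL7 itself stood at 0.475 and 0.347 FPKM in knockdown libraries and at 0.726 and 0.613 FPKM in control libraries. Both knockdown values lay under both control values, at a limma adjusted p of 0.32, which is over the threshold of 0.05. The 7 B lineage markers reported, among them PAX5 and EBF1, ran from 81.8 to 1478 FPKM, while the 3 T cell and 3 erythroid markers did not exceed 0.0133 and 0.0226 FPKM in any library. Summed B lineage markers were 3457 and 3519 FPKM in knockdown libraries and 3555 and 3532 FPKM in control libraries, so that both knockdown sums lay under both control sums. CD79A, CD79B, PAX5 and EBF1, 4 of the 7, were each lower in both knockdown libraries, as 27.7% of all genes tested were. The groups of VPREB1, IGLL1 and DNTT, the most abundant of the 7, overlapped. The part of these markers in the TRAPPC9 values was not tested. Of the 5 macrophage or monocyte markers, CSF1R stood at 33.8 to 38.0 FPKM and the others at 0.186 FPKM or less. Summed macrophage markers, mostly CSF1R, were 34.2 and 38.3 FPKM in knockdown libraries and 36.7 and 35.2 FPKM in control libraries, so the groups overlapped. ITGAM, 1 of the 5, was lower in both knockdown libraries, at 0.143 and 0.110 FPKM against 0.164 and 0.155 FPKM in control libraries. Of all genes tested, 27.7% were lower in both, and the groups of the other 4 markers overlapped. In bulk RNA, fewer cells of a type and less RNA per cell cannot be told apart.

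All 10 members were expressed, with a mean of at least 1 FPKM over the 4 libraries, and the levels of these 10 fell into 3 ranges. In control libraries the 4 core members stood at 28.7 to 41.7 FPKM, the TRAPP III members at 17.6 to 24.95 FPKM and the TRAPP II members at 11.6 to 15.4 FPKM, and these ranges did not overlap. The order does not extend to all core subunits: outside the member list, TRAPPC2, TRAPPC6B and TRAPPC2L had control means of 14.1, 13.9 and 8.18 FPKM, under every TRAPP III member. TRAPPC1 had the highest control mean, 41.1 ± 0.779 FPKM (SD, n = 2), and TRAPPC9 the lowest, 11.7 ± 0.189 FPKM. Within that order, TRAPPC5 and TRAPPC4 were not apart beyond their spread in control libraries, nor were TRAPPC13, TRAPPC8 and TRAPPC11. In knockdown libraries TRAPPC9 and TRAPPC10 were again the lowest members. The core and TRAPP III ranges met there, because TRAPPC5 stood at 20.7 FPKM in knockdown replicate 0, under TRAPPC8 and TRAPPC12 in the same library.

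**Figure D1:**
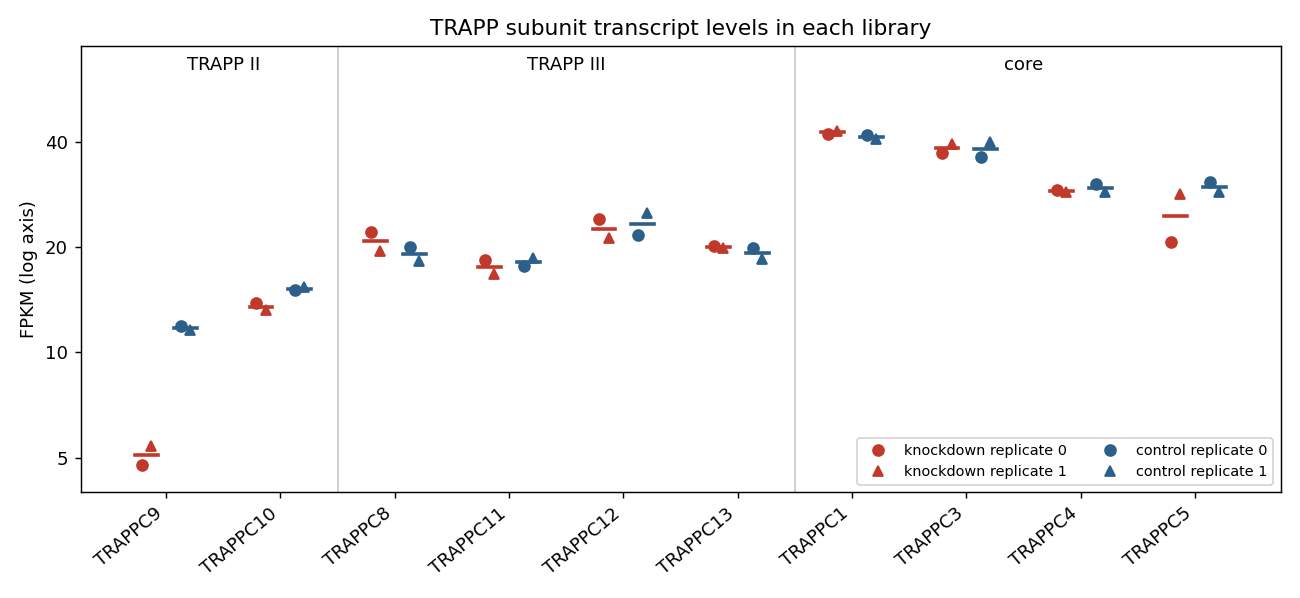
FPKM (log axis) of the 10 TRAPP members in each library, knockdown in red to the left of control in blue, with circles for replicate 0, triangles for replicate 1 and bars at the group means. TRAPPC9 stands at 4.77 and 5.40 FPKM in knockdown libraries, against 11.9 and 11.6 FPKM in control libraries, while the groups of most other members lie close together.

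TRAPPC9, a large TRAPP II subunit also known as a binding partner of NF-κB kinases, was lower in both knockdown libraries. Its level was 4.77 FPKM in knockdown replicate 0 and 5.40 FPKM in knockdown replicate 1, against 11.9 FPKM in control replicate 0 and 11.6 FPKM in control replicate 1. The groups did not overlap, and the difference was far larger than the spread within either group. The means were 5.08 ± 0.444 FPKM in knockdown and 11.7 ± 0.189 FPKM in control libraries (SD, n = 2 each), a ratio of 0.433. On the log2(FPKM + 1) scale the change was -1.07 ± 0.07 (SE), and 8 of the 12935 genes tested, TRAPPC9 among them, had a change at or below it. Of the 10 members, 1 passed limma's test at an adjusted p of 0.05, where 0.0309% of all genes passed in either direction and 0.0232% were lower in knockdown libraries, a count that the choice of the complex fixes. The call was lost without control replicate 0 and without control replicate 1, at limma adjusted p of 0.064 and 0.061, with log2 changes of -1.05 and -1.08. It was also lost with no filter on low values, at a limma adjusted p of 0.43. Over the longest annotated transcript and at the depths recovered from low values, TRAPPC9 rested on about 3560, 3550, 4940 and 10200 fragments in knockdown replicates 0 and 1 and control replicates 0 and 1. On those terms, counting error alone is 1.7% or less of a value. If shorter transcripts carried the reads, the fragments would be fewer and the error larger.

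TRAPPC10, the other TRAPP II member, was also lower in both knockdown libraries, by a much smaller amount. Its level was 13.8 and 13.2 FPKM in knockdown replicates 0 and 1, against 15.1 and 15.4 FPKM in control replicates 0 and 1. The groups did not overlap. The means were 13.5 ± 0.418 FPKM in knockdown and 15.2 ± 0.192 FPKM in control libraries (SD, n = 2 each), a ratio of 0.888 and a log2 change of -0.16 ± 0.06 (SE). Of all genes tested, 11.3% had a log2 change at or below that of TRAPPC10. Over the alternative settings its log2 change ran from -0.19 to -0.13.

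Because TRAPPC10 is the partner against which TRAPPC9 is read, the bases upstream of its start are shown. They are the 250 bases before the start of the gene in RefSeq on GRCh38.p14, plus strand, chr21:44012059-44012308, with the match to a GC box, GGGCGG on either strand, in capitals.
TRAPPC10: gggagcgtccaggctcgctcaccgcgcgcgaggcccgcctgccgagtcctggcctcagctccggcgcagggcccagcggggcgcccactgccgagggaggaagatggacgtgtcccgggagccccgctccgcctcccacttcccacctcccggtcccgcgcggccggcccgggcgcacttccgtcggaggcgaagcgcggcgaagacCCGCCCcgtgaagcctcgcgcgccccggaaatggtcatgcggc
This stretch was 77.2% G and C and held 37 CpG dinucleotides, where all 35116 windows of that length had medians of 58.0% and 11. Of the members, 8 were in the promoter table, and 6 of them (TRAPPC1, TRAPPC3, TRAPPC5, TRAPPC10, TRAPPC11 and TRAPPC12) held a GC box in at least 1 window, which 42.6% of all windows did. The motif CCAAT, searched on both strands, was in 3 of the 8, against 32.0% of all windows. CCGGAAG, a core of sites for ETS factors, was in 2 of the 8, TRAPPC1 and TRAPPC13, against 8.52% of all windows. TATAAA was in 0 of the 8, against 10.7% of all windows. These matches describe letters and are not evidence of binding. A member was counted if any of its windows matched, and TRAPPC1 and TRAPPC3 had 2 windows each. The percentages are of single windows, so the member counts are not strictly comparable with them.

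The TRAPP III members did not share the low TRAPPC9 values. TRAPPC8, a subunit with roles in traffic to the Golgi and in autophagy, had 22.1 and 19.5 FPKM in knockdown replicates 0 and 1, against 19.98 and 18.2 FPKM in control replicates 0 and 1. The groups overlapped, with the highest and the lowest value in knockdown replicate 0 and control replicate 1. Its mean was 20.8 ± 1.82 FPKM in knockdown and 19.1 ± 1.23 FPKM in control libraries (SD, n = 2 each), a log2 change of 0.12 ± 0.08 (SE).

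TRAPPC11, which is needed for transport from the endoplasmic reticulum and for protein glycosylation, had 18.4 and 16.7 FPKM in knockdown libraries, against 17.6 and 18.6 FPKM in control libraries, in replicate order. TRAPPC12, which also has a role at kinetochores in mitosis, had 24.0 and 21.2 FPKM in knockdown libraries, against 21.7 and 24.95 FPKM in control libraries. Both sets of groups overlapped, and the log2 changes were -0.04 ± 0.07 for TRAPPC11 and -0.04 ± 0.09 for TRAPPC12 (SE). TRAPPC13, a smaller TRAPP III subunit, had 20.1 and 19.9 FPKM in knockdown libraries, against 19.9 and 18.5 FPKM in control libraries. Its groups were just apart, with a log2 change of 0.06 ± 0.06 (SE) that turned to -0.03 once the trend of the values with transcript GC content was removed.

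Among the core members, TRAPPC1, TRAPPC3 and TRAPPC4 differed little between the groups. TRAPPC1, a longin-fold subunit, had 42.1 and 43.0 FPKM in knockdown libraries, against 41.7 and 40.6 FPKM in control libraries, a log2 change of 0.05 ± 0.05 (SE). TRAPPC3, a Bet3-fold subunit that carries a lipid anchor, had 37.2 and 39.3 FPKM in knockdown libraries, against 36.2 and 39.9 FPKM in control libraries. TRAPPC4, the other longin-fold subunit, had 29.1 and 28.6 FPKM in knockdown libraries, against 30.2 and 28.7 FPKM in control libraries. The groups of TRAPPC1 did not overlap, and those of TRAPPC3 and TRAPPC4 did, with log2 changes of 0.01 ± 0.07 and -0.03 ± 0.05 (SE).

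TRAPPC5, a Bet3-fold subunit, was the member with the widest spread. Its level was 20.7 FPKM in knockdown replicate 0 and 28.4 FPKM in knockdown replicate 1, against 30.6 FPKM in control replicate 0 and 28.7 FPKM in control replicate 1. The groups did not overlap, but knockdown replicate 1 lay close to the control libraries. The means were 24.5 ± 5.47 FPKM in knockdown and 29.7 ± 1.40 FPKM in control libraries (SD, n = 2 each), with a log2 change of -0.28 ± 0.14 (SE). The size rested on single knockdown libraries: the log2 change was -0.06 without knockdown replicate 0 and -0.50 without knockdown replicate 1.

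**Figure D2:**
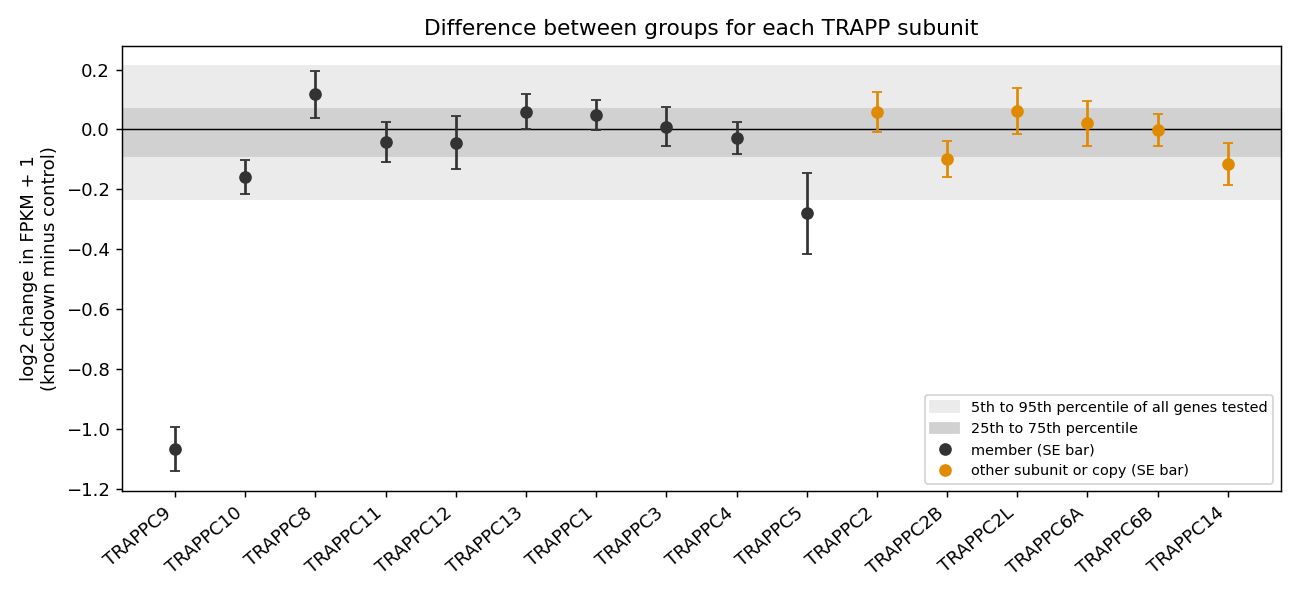
Change on the log2(FPKM + 1) scale (knockdown minus control) of the 10 members, in black, and of 6 other TRAPP subunits or copies, in orange, with SE bars. Grey bands span the 5th to 95th and the 25th to 75th percentiles of all 12935 genes tested, and TRAPPC9 at -1.07 and TRAPPC5 at -0.28 lie below the wider band, whose lower edge is -0.23.

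Without TRAPPC9, the other 9 members were centred where all genes were. Their median log2 change was -0.03, against -0.01 over all genes tested, and it ran from -0.28 for TRAPPC5 to 0.12 for TRAPPC8. Their summed level was 228 and 230.0 FPKM in knockdown replicates 0 and 1, against 233 FPKM in each control library. Counting TRAPPC9, 3 of the 10 members (TRAPPC9, TRAPPC10 and TRAPPC5) had both knockdown values under both control values, as 27.7% of all genes did. Another 2 of the 10 (TRAPPC1 and TRAPPC13) had them above, as 22.5% of all genes did. Groups were apart in one direction or the other for 50.3% of all genes, so these counts are near the background.

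Ratios within a library do not depend on the scaling between libraries. They reuse the TRAPPC9 values for which the complex was chosen, so their separation is a description and adds no support. The ratio of TRAPPC9 to TRAPPC10 FPKM was 0.345 and 0.408 in knockdown replicates 0 and 1, against 0.787 and 0.755 in control replicates 0 and 1. The ratio of TRAPPC9 to TRAPPC8 was 0.216 and 0.276 in knockdown libraries, against 0.594 and 0.636 in control libraries. Against TRAPPC1, the most abundant member, it was 0.113 and 0.126 in knockdown libraries and 0.285 and 0.286 in control libraries. For each of the 9 partners the lowest control ratio exceeded the highest knockdown ratio, by 1.68 times with TRAPPC5 as the denominator up to 2.27 times with TRAPPC1. TRAPPC9 made up 2.05% and 2.29% of the summed FPKM of the 10 members in knockdown libraries, against 4.85% and 4.73% in control libraries.

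**Figure D3:**
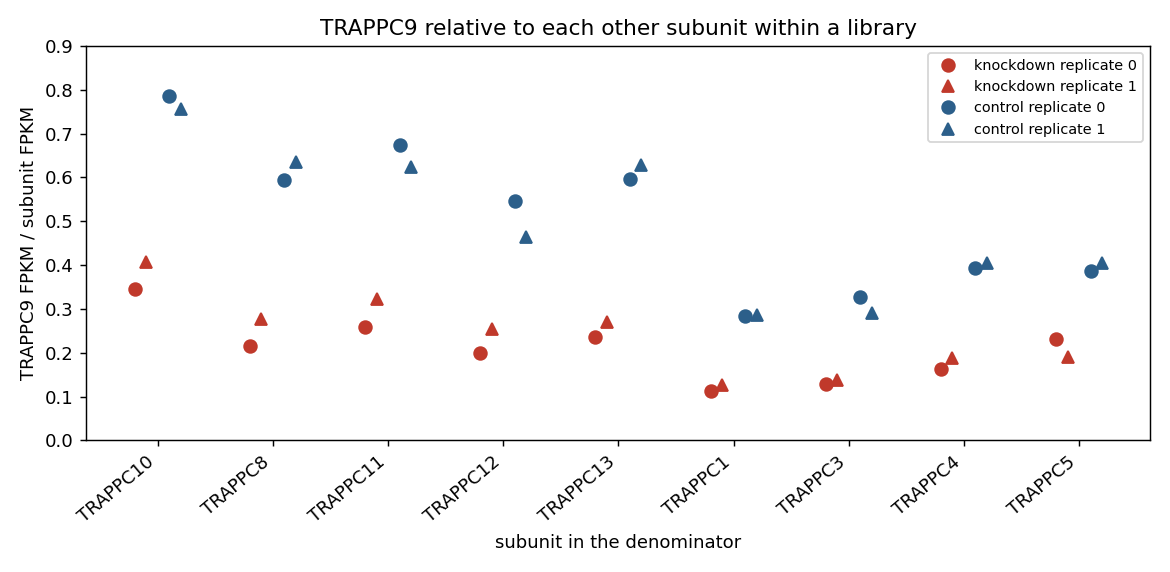
Ratio of TRAPPC9 FPKM to the FPKM of each other member, computed within each library, knockdown in red to the left of control in blue, with circles for replicate 0 and triangles for replicate 1. With TRAPPC10 as the denominator the ratios are 0.345 and 0.408 in knockdown libraries and 0.787 and 0.755 in control libraries, and the groups are apart for all 9 denominators.

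The subunits outside the member list could be tested, and 0 of 6 passed limma over all genes (0.0309% of all genes passed), with 0 of 6 at an unadjusted p under 0.05, where 16.6% of all genes were. TRAPPC14, which joins TRAPP II in animal cells, had 8.54 and 9.44 FPKM in knockdown libraries, against 9.57 and 10.0 FPKM in control libraries. Its groups did not overlap, with a log2 change of -0.12, a 95% interval of -0.28 to 0.05 and a limma adjusted p of 0.45. With the GC trend removed the change of TRAPPC14 was -0.02, and without knockdown replicate 0 it was -0.05. LAMTOR4, which overlaps TRAPPC14 on the other strand, had 97.6 and 100.4 FPKM in knockdown libraries, against 113 and 108 FPKM in control libraries. Its limma adjusted p was 0.24, and its part in the TRAPPC14 values was not tested. The alternative core subunits TRAPPC6A and TRAPPC6B averaged 31.5 ± 3.06 and 13.8 ± 0.131 FPKM in knockdown libraries, against 31.0 ± 1.17 and 13.9 ± 0.0785 FPKM in control libraries (SD, n = 2 each). Their 95% intervals were -0.16 to 0.20 and -0.13 to 0.13 on the log2 scale. MARK4, which overlaps TRAPPC6A on the other strand, had 19.3 and 19.8 FPKM in knockdown libraries, against 23.4 and 23.6 FPKM in control libraries. Its limma adjusted p was 0.19, and its part in the TRAPPC6A values was not tested. TRAPPC2L, a core subunit related to TRAPPC2, averaged 8.59 ± 0.826 FPKM in knockdown and 8.18 ± 0.00750 FPKM in control libraries. The signs for TRAPPC2, TRAPPC2L, TRAPPC6A and TRAPPC6B turned under some settings. TRAPPC3L, a relative of TRAPPC3, was not tested, with values of 0.00394 FPKM or less in every library.

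The values of TRAPPC2, the core subunit sedlin, and of its intronless copy TRAPPC2B are uncertain, since their coding sequences differ at 6 of 423 bases and reads may be shared. The first 240 bases of each coding sequence from GENCODE 29 are shown for that reason, with the 5 differing bases of this stretch in capitals.
TRAPPC2: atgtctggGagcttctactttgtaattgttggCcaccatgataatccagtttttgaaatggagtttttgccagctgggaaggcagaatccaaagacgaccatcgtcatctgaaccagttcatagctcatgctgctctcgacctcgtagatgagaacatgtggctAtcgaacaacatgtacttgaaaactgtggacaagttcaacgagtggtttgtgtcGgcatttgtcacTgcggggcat
TRAPPC2B: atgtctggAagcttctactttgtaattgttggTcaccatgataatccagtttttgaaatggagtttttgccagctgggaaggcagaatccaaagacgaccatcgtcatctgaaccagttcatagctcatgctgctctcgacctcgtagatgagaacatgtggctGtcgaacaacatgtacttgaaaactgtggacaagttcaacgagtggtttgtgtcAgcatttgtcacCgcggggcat
The longest run without a difference in the coding sequence was 131 bases. TRAPPC2 had 15.5 and 14.1 FPKM in knockdown libraries, against 13.9 and 14.3 FPKM in control libraries. TRAPPC2B had 13.5 and 13.9 FPKM in knockdown libraries, against 14.2 and 15.2 FPKM in control libraries. Neither passed, with limma adjusted p of 0.69 and 0.46. Their sum, which is less exposed to a division of shared reads, was 28.96 and 27.95 FPKM in knockdown libraries, against 28.2 and 29.6 FPKM in control libraries, and the groups overlapped.

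TRAPPC9 differed from the other members in gene size. On GRCh38 it spans 731 kb of chromosome 8, from 139727725 to 140458579 on the minus strand, with 23 exons in its longest annotated transcript. The other members span 1.78 kb (TRAPPC1) to 124 kb (TRAPPC8), and TRAPPC10, with 23 exons in its longest transcript as well, spans 94.2 kb. TRAPPC9 is among the 113 tested protein-coding genes of 500 kb or more. Their median log2 change was -0.06, against -0.01 over 11133 tested protein-coding genes. Of the 113, 39 (34.5%) were lower in both knockdown libraries, beside 27.7% of all genes tested, of every type. The GC content of the longest transcript was 55.5% for TRAPPC9 and 47.5% for TRAPPC10, and TRAPPC1, at 57.8%, and TRAPPC5, at 56.0%, were higher than TRAPPC9. With the GC trend removed, the log2 change was -1.02 for TRAPPC9, -0.16 for TRAPPC10 and 0.11 for TRAPPC1.

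Whether reads were counted by strand is not stated, so reads of a member and of a gene on its other strand cannot be told apart. The table listed 2 genes inside TRAPPC9, both on its other strand. C8orf17 did not exceed 0.00604 FPKM, and an antisense gene was listed at 0 in all 4 libraries. TRAPPC4 overlaps RPS25, a ribosomal protein gene on the other strand with 3454 and 3589 FPKM in knockdown libraries and 3309 and 3594 FPKM in control libraries. In all, 7 of the 10 members overlap 11 listed genes, of which 10 lie on the other strand. Of the 7 of these that were tested, 0 passed limma over all genes, and SHLD3, on the strand of TRAPPC13, had the smallest adjusted p, 0.21.

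The nearest tested genes beside TRAPPC9 were KCNK9, a potassium channel gene 23.6 kb away, and CHRAC1, a chromatin remodelling subunit gene 52.7 kb away. KCNK9 averaged 44.2 ± 2.44 FPKM in knockdown and 48.6 ± 2.86 FPKM in control libraries (SD, n = 2 each), with a limma adjusted p of 0.37. CHRAC1 averaged 30.6 ± 0.218 FPKM in knockdown and 27.2 ± 1.83 FPKM in control libraries, with a limma adjusted p of 0.27. Neither passed the test, and they lay on opposite sides of 0, at log2 changes of -0.13 ± 0.07 and 0.17 ± 0.06 (SE). The 95% intervals were -0.29 to 0.03 for KCNK9 and 0.02 to 0.32 for CHRAC1. For both genes the knockdown and control values did not overlap, as for 50.3% of all genes tested.

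Genes that work with TRAPP or at neighbouring steps were described in 8 lists of 82 genes, of which 80 were tested. In these lists 0 genes passed limma over all genes in either direction, 39 had positive and 41 negative log2 changes, and 3 higher and 2 lower ones had an unadjusted p under 0.05. Over all genes tested, 16.6% had such a p, 7.25% higher and 9.35% lower. The median log2 change was -0.01, as over all genes tested. In the list of target GTPases and partners, 0 of 16 tested genes passed, with 9 positive and 7 negative log2 changes. RAB18, a GTPase that TRAPP II activates in human cells, had 38.0 and 38.8 FPKM in knockdown libraries, against 35.6 and 34.4 FPKM in control libraries (limma adjusted p = 0.28). IKBKB, the NF-κB kinase that TRAPPC9 binds, had 54.4 and 52.2 FPKM in knockdown libraries, against 57.0 and 61.2 FPKM in control libraries (limma adjusted p = 0.28). RAB11A, a recycling GTPase and the most abundant gene of the list, averaged 86.3 ± 0.0685 FPKM in knockdown and 81.7 ± 3.97 FPKM in control libraries (SD, n = 2 each).

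The COPII coat buds the vesicles that TRAPP III meets. Among the genes of this coat and of its exit sites, 0 of 16 tested passed. Their log2 changes were 7 positive and 9 negative, with a median of -0.01. SEC31B, a minor outer coat gene, averaged 18.7 ± 2.19 FPKM in knockdown and 22.3 ± 2.82 FPKM in control libraries (SD, n = 2 each), with a limma adjusted p of 0.32. SEC16A, the exit site scaffold, averaged 21.6 ± 0.893 FPKM in knockdown and 19.6 ± 1.38 FPKM in control libraries, and SEC31A stood at a ratio of 0.987. Among Golgi tethers and golgins, 0 of 14 passed, with 6 positive and 8 negative log2 changes and a median of -0.02. GCC2, a golgin of the trans-Golgi network, had 13.6 and 12.3 FPKM in knockdown libraries, against 10.7 and 10.2 FPKM in control libraries, with a limma adjusted p of 0.20. GORASP1, a Golgi stacking protein gene, had 28.5 FPKM in each knockdown library, against 32.6 and 31.9 FPKM in control libraries, with a limma adjusted p of 0.21. The most abundant gene of that list was CUX1, whose locus also encodes a Golgi protein, at a ratio of 0.909.

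The other multi-subunit tethers gave 0 passing genes as well. In the COG complex, which tethers within the Golgi, 0 of 8 passed, with 4 positive and 4 negative log2 changes and a median of -0.01. COG7, COG1 and COG4 stood at ratios of knockdown to control of 0.901, 0.933 and 0.966. In the exocyst, which tethers at the plasma membrane, 0 of 9 passed, with 4 positive and 5 negative log2 changes and a median of -0.03. EXOC6 had 6.996 and 5.14 FPKM in knockdown libraries, against 4.81 and 4.28 FPKM in control libraries (limma adjusted p = 0.28), and EXOC4 stood at a ratio of 0.9199. In GARP and EARP, which receive endosomal vesicles, 0 of 5 passed, with 3 positive and 2 negative log2 changes, and VPS51 and VPS50 stood at ratios of 1.07 and 1.10. In the NRZ complex of retrograde transport, 0 of 3 passed, with 1 positive and 2 negative log2 changes, and NBAS and RINT1 stood at 0.896 and 1.05. HOPS and CORVET tether at endosomes and lysosomes. In the list for them 0 of 9 passed, with 5 positive and 4 negative log2 changes and a median of 0.0024. That list also counts VPS33B, at a log2 change of -0.06, whose place in these complexes was not examined. The 2 genes of smallest p in it, VPS16 and VPS41, stood at ratios of 0.933 and 0.945.

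**Figure D4:**
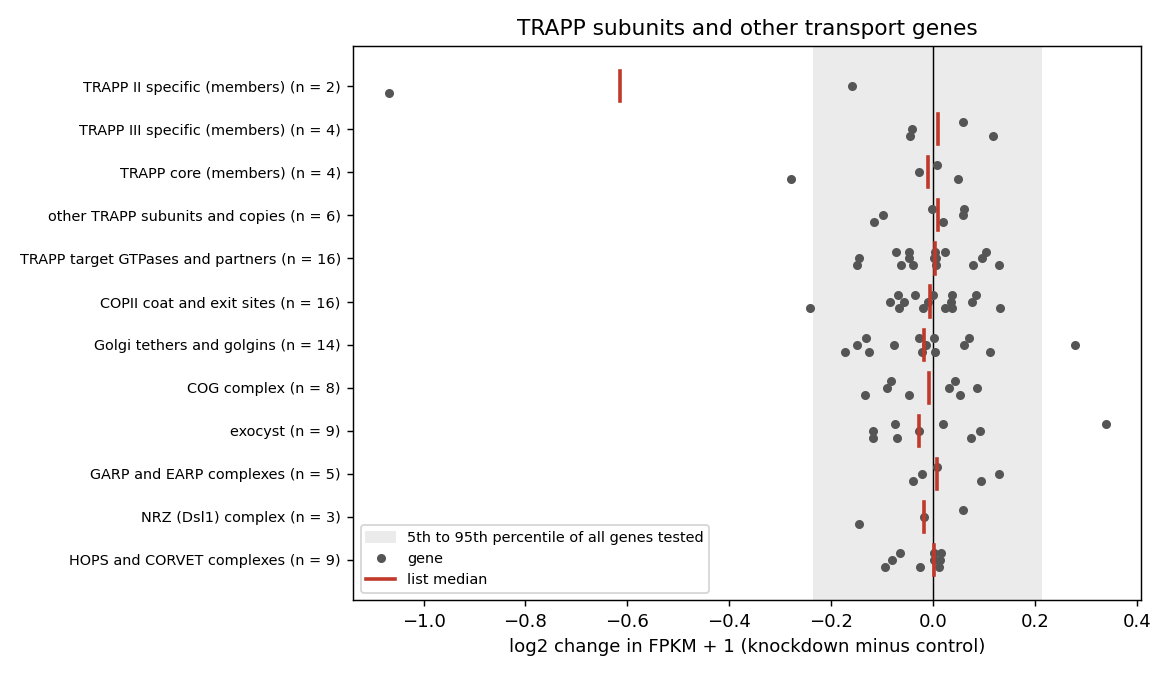
Change on the log2(FPKM + 1) scale (knockdown minus control) of each tested gene in the TRAPP groups and in 8 lists of related transport genes, with red bars at the list medians and a grey band from the 5th to the 95th percentile of all genes tested. TRAPPC9 is the point at -1.07, and the 80 tested genes of the 8 lists lie between -0.24 and 0.34.

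The tested genes whose 4 values were most like those of TRAPPC9, by Euclidean distance between deviations from the gene mean on the log2(FPKM + 1) scale over 4 libraries, were MT1G, C4orf48, CSRP1-AS1, MAFA and ASIC2, at distances of 0.368, 0.368, 0.371, 0.422 and 0.433. MT1G, a metallothionein gene, had 2.79 and 3.27 FPKM in knockdown libraries, against 5.79 and 5.32 FPKM in control libraries. MAFA, a transcription factor gene, had 1.52 and 1.67 FPKM in knockdown libraries, against 3.02 and 3.12 FPKM in control libraries. ASIC2, a subunit of acid-sensing ion channels, was the only gene of the 5 past limma's test over all genes (adjusted p = 0.0069), at 1.13 and 1.17 FPKM in knockdown libraries, against 5.09 and 4.99 FPKM in control libraries. Among the other members the nearest to TRAPPC9 by this distance were TRAPPC5, at rank 378 and a distance of 0.816, and TRAPPC10, at rank 1390 and a distance of 0.9201. The ranking reuses the TRAPPC9 values for which the complex was chosen, so it is a description and adds no support.

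**Figure D5:**
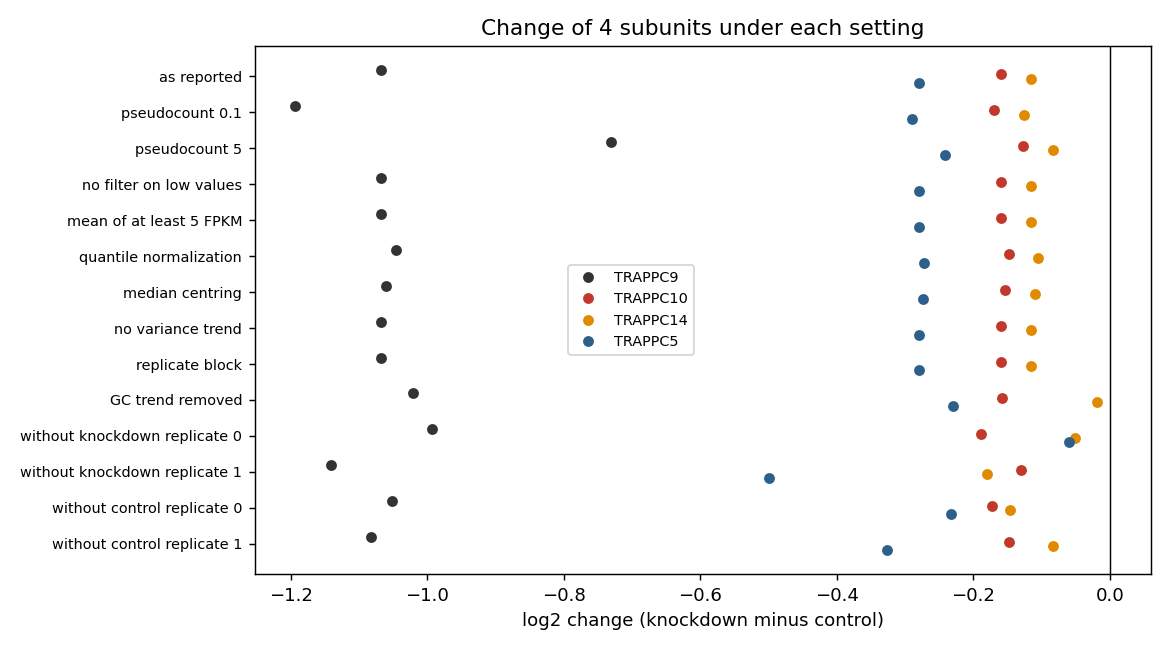
Log2 change (knockdown minus control) of TRAPPC9, TRAPPC10, TRAPPC14 and TRAPPC5 as reported and under each of 13 other settings. TRAPPC9 lies between -1.19 and -0.73 in all of these settings, and TRAPPC5 between -0.50 and -0.06.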

How the data were processed

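The deposited table gives each of 43450 Ensembl gene IDs a value in every library, without naming its unit. The deposited values were taken to be FPKM, from the Cuffdiff name of the ID column and the values themselves. Per the submitters' processing notes, the tools were TopHat2 2.0.14, Bowtie2 2.2.5 and Cuffdiff 2.2.1, and the build was hg19; nothing is stated of options, annotation or scaling. Values were taken as scaled to each library's mapped fragments. On that footing, depth was read from the steps of low values in 1215 genes that have 1 annotated transcript of at least 2500 nt. It came to 108 M, 95.2 M, 60.2 M and 127 M fragments in knockdown replicates 0 and 1 and control replicates 0 and 1, and 86.4% to 89.6% of the low values lay within 0.15 of a whole multiple.

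Knockdown and control were compared with limma 3.58.1 in R 4.3.3 on log2(FPKM + 1) with a mean-variance trend. The 12935 genes tested were HAL7 and those averaging 1 FPKM or more. P-values are two-sided, with Benjamini-Hochberg adjustment at 0.05 over all of them, and measure only the spread between these libraries. For a single value, exact permutation of 2 against 2 libraries gives 0.333 at the lowest. Log2 changes understate the change of low genes, and ratios are of mean FPKM. The members and lists were chosen with earlier results of these data known.

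The text names HAL7, the TRAPP subunits, the 2 genes of smallest p and the most abundant gene of each list, genes that overlap TRAPPC9 or lie next to it, and the 5 genes with the most similar values. Of the B lineage markers, 1 is not reported here. SHLD3, LAMTOR4, MARK4, RPS25, VPS33B and the marker genes fall outside that rule. All of these but the marker genes were chosen after their values were seen. Names and positions are from GENCODE 29 and RefSeq on GRCh38, not the authors' build, and serve for identity, size and neighbours. The alternatives changed the pseudocount (0.1 or 5), the filter (none, or a mean of 5 FPKM), the scaling (quantile or median), the variance trend, the replicate block, the GC trend (12499 genes) or the libraries kept, 1 being left out each time; its group's lone library was then taken to vary as the other group did.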

Additional observations from a re-analysis of the deposited data

How the results depend on the processing

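TRAPPC9 was lower in knockdown libraries under all 13 alternatives, and was called in 10 of them. Its log2 change was -1.19 with a pseudocount of 0.1 and -0.73 with a pseudocount of 5, and its limma adjusted p ran from 0.0053 to 0.43. All settings reuse the TRAPPC9 values for which the complex was chosen, so they describe the call and add no support. Of the members, 0 were called with no filter on low values, and 0 to 1 when a library was left out. With no filter 28016 genes are tested. Over all genes, 4 were called as reported, 2 with a pseudocount of 0.1, 0 with no filter, 1 with a mean of at least 5 FPKM, and 11 to 22 with a library left out. With the replicate block 19 genes were called, and TRAPPC9 had a limma adjusted p of 0.0053; the labels do not say that a number pairs libraries, and deviations of same-numbered libraries correlated at 0.12 across genes. The counts of 0 in the 8 pathway lists and in the other TRAPP subunits did not change under any alternative. Leaving out a library gave log2 changes of -0.0066 to 0.13 for TRAPPC2, -0.027 to 0.15 for TRAPPC2L, -0.076 to 0.12 for TRAPPC6A and -0.011 to 0.0073 for TRAPPC6B, with signs that turned, and TRAPPC6B stood at 0.0059 with quantile normalization and 0.0046 with median centring. The signs of TRAPPC3, TRAPPC4, TRAPPC11 and TRAPPC12, all near 0, also turned in 1 or 2 of the 13 alternatives. The causes were not tested. With 2 libraries a group, small changes of subunits cannot be resolved.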
